A study of Canis lupus familiaris with 13 samples.

Results

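DKK3, NR2F1, NR2F2 and PAM are genes with a known part in the atria of the heart, and their messenger RNA was followed here in failing and paced dog hearts. The members were all probe sets (short sets of oligonucleotides that report on 1 transcript) to which the array annotation gives exactly 1 of these 4 symbols. They are 8 probe sets, 3 of DKK3, 1 of NR2F1, 1 of NR2F2 and 3 of PAM, out of 23836 on the array once control probe sets were set aside, and 4 of the 6540 genes with a symbol of their own. Heart tissue RNA of 13 samples was measured, 1 array each. The control group held 3 mongrels (P1, P4 and P9). Dilated cardiomyopathy, a disease of enlarged and weakly beating ventricles, was represented by 3 Dobermans (K, L and R) and 4 Boxers (1, 2, 3 and 4). The last group held 3 paced mongrels (LV01, LV02 and LV04), whose hearts were driven through an electrode, which in dogs can lead to heart failure. The labels give no age, no pacing rate or length and do not state a chamber of the heart. Only the names of the paced samples carry the letters LV, whose meaning is not explained. All control and paced samples were mongrels and no healthy Doberman or Boxer was measured, so breed and disease cannot be told apart. Nothing beyond the sample names says that the samples came from separate animals, and p-values measure the spread between these samples.

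Atrial and ventricular muscle cells run different gene programmes. NR2F2 (COUP-TFII) and its close relative NR2F1 (COUP-TFI) are nuclear receptors that act as transcription factors. In the mouse, NR2F2 is needed in heart muscle cells to hold the atrial programme, and it also sets the identity of veins. In human heart muscle cells grown from stem cells, both factors act on atrial genes such as the potassium channel gene KCNA5. PAM encodes the copper-dependent enzyme that amidates peptide hormones and is a main membrane protein of the atrial granules that store natriuretic peptide. DKK3 encodes a secreted glycoprotein of the Dickkopf family, whose founding members block Wnt signalling.

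Values are MAS5 signals, which are linear intensities scaled by array, and levels of different probe sets cannot be set against each other. Tests ran on log2(signal + 16) over 14302 probe sets whose mean log2 value reached the 40th percentile, a signal of 108. All 8 member probe sets passed that filter. A probe set counts as called where its Benjamini-Hochberg adjusted p in the limma fit across all tested probe sets was under 0.05. The arrays of Dobermans L and R stood apart. Their ratios of 3' to 5' GAPDH signal, a measure of RNA integrity, were 2.10 and 3.62, against 0.967 to 1.09 on the other 11 arrays, Doberman K included. The Doberman arrays correlated with the rest of their group at a mean r of 0.866 to 0.886 and the other arrays at 0.950 to 0.965. Median signals were 142 to 146 in controls, 132 to 145 in Boxers, 207 to 219 in paced mongrels and 160 to 234 in Dobermans. A low signal in whole tissue can come from fewer cells of a type or from less RNA per cell, and these cannot be told apart.

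**Figure D1:**
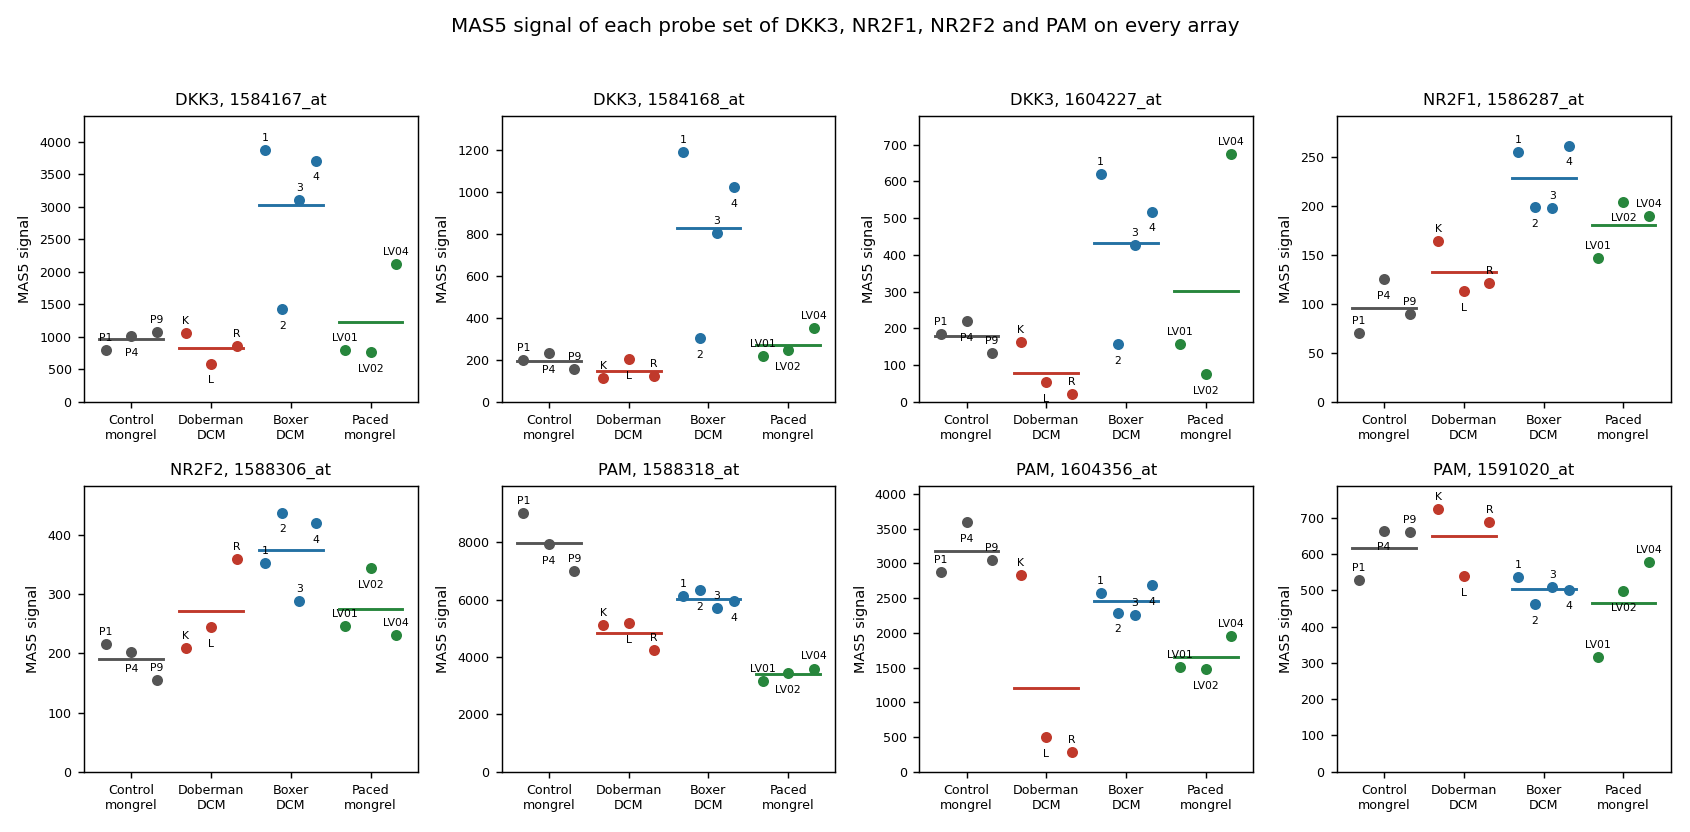
MAS5 signal (y axis, linear, starting at 0) of the 8 probe sets on every array, by group (x axis). Each point is 1 array with its sample name and each bar is the group mean. The first PAM panel shows the paced arrays lowest, between 3159 and 3600, and the first DKK3 panel shows Boxers 1, 3 and 4 above all other arrays.

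PAM was lower in paced hearts and in Dobermans than in controls. Its brightest probe set, 1588318_at, gave signals of 9032, 7928 and 7000 in the controls P1, P4 and P9. The paced mongrels LV01, LV02 and LV04 gave 3159, 3447 and 3600. All 3 paced arrays therefore lay below every control and below all other arrays of the study. The mean signal was 7986 ± 1017 (SD, n = 3) in controls and 3402 ± 224 (SD, n = 3) in paced mongrels. On the log2 scale PAM fell by 1.22 with pacing, 2.33-fold, with an SE of 0.16 and an adjusted p of 0.000997 in limma. This was the only call among the 8 probe sets in that comparison. Over all tested probe sets 3.74% were called lower with pacing and 8.47% higher. The call remained when any 1 array was left out, with changes between -1.31 and -1.13.

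In the Dobermans K, L and R the same PAM probe set gave 5103, 5185 and 4256, again below every control. Its mean was 4848 ± 514 (SD, n = 3), 1.64-fold lower than in controls, a log2 change of -0.72 ± 0.16 (SE, adjusted p = 0.0107 in limma). Doberman K, whose GAPDH ratio was that of the other groups, was as low as L. With L and R left out, the change was -0.64 and the adjusted p 0.0606, on 1 Doberman array. The Boxers gave 6123, 6334, 5707 and 5941 for arrays 1 to 4. These are close together and also all under the lowest control, with a mean of 6026 ± 266 (SD, n = 4), but the difference of -0.40 ± 0.15 (SE) was not called (adjusted p = 0.561 in limma).

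PAM 1588318_at thus gave its lowest mean in paced mongrels, then Dobermans, then Boxers, then controls. Of the neighbours in that order, paced mongrels and Dobermans differed by 0.51 ± 0.16 (SE, adjusted p = 0.0320). Dobermans and Boxers, at -0.32 ± 0.15 (SE, adjusted p = 0.100), and Boxers and controls did not differ beyond the threshold. Boxers were above paced mongrels by 0.82 ± 0.15 (SE, adjusted p = 0.00292 in limma). The step between Dobermans and paced mongrels was not called without Doberman L (0.45, adjusted p = 0.0651), LV01 (0.45, 0.106), LV02 (0.52, 0.0749) or LV04 (0.55, 0.0598).

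The other PAM probe sets did not all follow. For 1604356_at the controls gave 2883, 3591 and 3045, and the Dobermans K, L and R gave 2839, 503 and 288. Doberman K lay just under the lowest control, while L and R, the arrays with the raised GAPDH ratio, were far below every other array. The change in Dobermans was called at -2.05 ± 0.55 (SE, adjusted p = 0.0208 in limma), but without L and R it was -0.15 (adjusted p = 0.725). Leaving out 1 array also ended the call for P1 (-2.12, adjusted p = 0.0534), P4 (-1.96, 0.0615), P9 (-2.08, 0.0513), L (-1.77, 0.0811) and R (-1.38, 0.0724). Signals with pacing were 1508, 1474 and 1956, all below the controls. That difference of -0.95 ± 0.55 (SE) was not called (adjusted p = 0.275). It was called in 5 of 23 alternatives: at an unchanged difference without Doberman K (adjusted p = 0.00531), without L and R (0.000904) and when only the groups compared were fitted (0.00478), and at -0.96 with array weights (0.0122) and -1.15 with the GAPDH ratio as a covariate (0.00388). Boxers gave 2577, 2292, 2253 and 2692, also under the lowest control, with a difference of -0.37 ± 0.52 (SE, adjusted p = 0.935).

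The third PAM probe set, 1591020_at, gave 529, 665 and 660 in controls, 723, 539 and 688 in Dobermans, 317, 497 and 578 in paced mongrels and 538, 461, 509 and 502 in Boxers. Every group overlapped the controls. Its differences from controls were 0.07 ± 0.22 in Dobermans, -0.28 ± 0.21 in Boxers and -0.44 ± 0.22 in paced mongrels (SE), none called (adjusted p = 0.832, 0.833 and 0.216). Over the 13 arrays, which share the scaling and the groups, the Pearson r of log2 values was 0.486 between 1588318_at and 1604356_at, 0.367 between 1588318_at and 1591020_at, and -0.015 between 1604356_at and 1591020_at. The files used here do not say which stretch of the transcript each probe set reads.

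**Figure D2:**
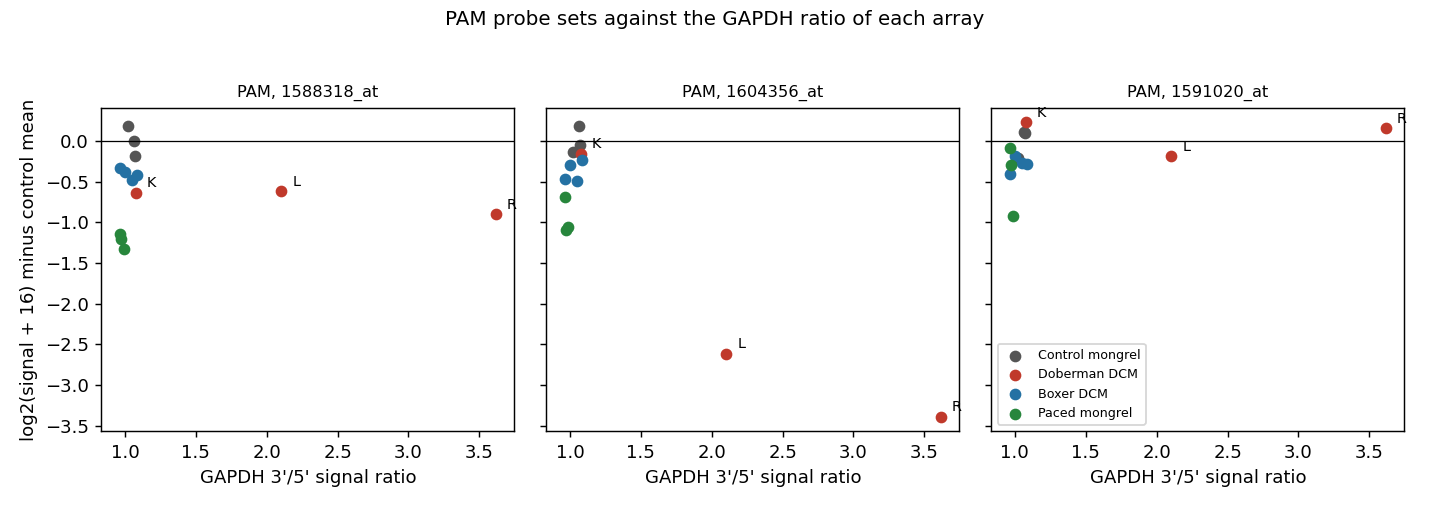
Log2(signal + 16) of the 3 PAM probe sets, less the control mean (y axis), against the 3'/5' GAPDH signal ratio of the array (x axis). Points are arrays and colours are groups. In 1604356_at Dobermans L and R, at ratios of 2.10 and 3.62, lie at -2.61 and -3.39, while K lies at -0.15; in 1588318_at K, L and R lie at -0.64, -0.61 and -0.90.

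Over all 12 tested markers of heart muscle cells, of 15 listed, the summed signal was 210608 to 299265 in controls and 185414 to 206177 in paced mongrels, so it too was lower with pacing. None of these markers was listed at 0 on any array, and none of the 12 was called in paced mongrels, where their median difference was -0.38 against -0.04 over all genes tested. The sum was 217897 to 427228 in Dobermans and 215401 to 239972 in Boxers. Its part in the PAM result was not tested.

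DKK3 gave its highest levels in Boxers. Its brightest probe set, 1584167_at, gave 3873, 1426, 3102 and 3707 in Boxers 1 to 4. Controls gave 799, 1007 and 1065, Dobermans K, L and R gave 1051, 585 and 852, and paced mongrels gave 793, 765 and 2121. Boxers 1, 3 and 4 stood above every other array, Boxer 2 was under the paced mongrel LV04, and Dobermans and controls overlapped. Mean signals were 3027 ± 1118 (SD, n = 4) in Boxers, 1226 ± 775 (SD, n = 3) in paced mongrels, 957 ± 140 (SD, n = 3) in controls and 829 ± 234 (SD, n = 3) in Dobermans. In that order, the step from Boxers to paced mongrels was called (1.36 ± 0.39, SE, adjusted p = 0.0274 in limma), and the steps from paced mongrels to controls and from controls to Dobermans were not.

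The direct comparison of the breeds held the largest DKK3 differences. Dobermans minus Boxers was -1.79 ± 0.39 on the log2 scale for 1584167_at, -2.26 ± 0.39 for 1584168_at and -2.37 ± 0.65 for 1604227_at (SE), so DKK3 was lower in Dobermans in all 3. The adjusted p-values in limma were 0.00693, 0.00325 and 0.0165. For 1584168_at Boxers gave 1191, 301, 805 and 1024, Dobermans 113, 203 and 123, controls 200, 230 and 156, and paced mongrels 220, 244 and 352. In both of these brighter probe sets every Doberman lay under every Boxer. The share of all tested probe sets that did so is not given here. In limma 13.6% of them were called lower in Dobermans than in Boxers. For 1604227_at Boxers gave 622, 158, 427 and 518, Dobermans 163, 53.7 and 21.7, controls 185, 219 and 132, and paced mongrels 158, 75.4 and 675. Here Doberman K was just above Boxer 2, and the Doberman mean lay under the filter level, so the size of that change depends on the pseudocount. With Dobermans L and R left out, leaving K alone, the differences were -1.41, -2.55 and -1.17 (adjusted p = 0.181, 0.0403 and 0.466), so only that of 1584168_at was still called. That of 1604227_at was not called without L (-2.29, adjusted p = 0.0601) or without R (-1.85, 0.0756).

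Against controls the DKK3 difference in Boxers was large but not called. It was 1.56 ± 0.39 (SE, 2.94-fold) for 1584167_at and 1.85 ± 0.39 (SE, 3.61-fold) for 1584168_at, with every Boxer above every control. The adjusted p-values were 0.301 and 0.228 in limma. Only 6 of the 14302 probe sets were called between Boxers and controls, and 1058 had an unadjusted p under 0.05. Boxer 2 was the lowest Boxer in all 3 probe sets. Without it 1584168_at gave 2.27 with an adjusted p of 0.00835. With all 4 Boxers, 1604227_at overlapped the controls and gave 1.08 ± 0.65 (SE, adjusted p = 0.784). In Dobermans the differences from controls were -0.23 ± 0.41, -0.40 ± 0.41 and -1.30 ± 0.70 (SE), and in paced mongrels 0.19 ± 0.41, 0.43 ± 0.41 and 0.22 ± 0.70, none called. LV04 was the highest paced array in all 3 probe sets, and without it 1584167_at and 1604227_at gave -0.28 and -0.60.

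Boxers against paced mongrels gave 1.42 ± 0.39 (SE, adjusted p = 0.0229) for DKK3 1584168_at and 0.86 ± 0.65 (SE, adjusted p = 0.390) for 1604227_at. These calls were not firm. Without Boxer 1, 3 or 4, 1584167_at gave 1.21, 1.32 and 1.23 (adjusted p = 0.0731, 0.0653 and 0.0727) and without LV01 or LV02 it gave 1.14 and 1.11 (0.115 and 0.114). 1584168_at gave 1.20, 1.38 and 1.27 without those Boxers (0.0657, 0.0574 and 0.0656) and 1.29 and 1.36 without those paced arrays (0.0883 and 0.0734). The r between the DKK3 probe sets over the 13 arrays was 0.891, 0.833 and 0.762.

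The 9 tested fibroblast markers, of 16 listed, summed to 34784 to 51595 in Boxers, 25399 to 38986 in controls, 31493 to 42963 in Dobermans and 25168 to 30660 in paced mongrels. None was at 0 on any array. Against controls all 9 had a higher mean in Boxers, with a median difference of 0.66 against -0.02 over all genes tested, and none was called. S100A4 gave 2.02 ± 0.38 (SE, adjusted p = 0.118 in limma) and MFAP4 1.27 ± 0.31 (SE, adjusted p = 0.301), with every Boxer above every control in both, as for the brighter DKK3 probe sets. The same held for PDGFRL (0.88) and FBLN2 (0.66), and for 6.32% of all tested probe sets. COL1A1 gave 0.87 with overlap. In Dobermans DCN, S100A4 and MFAP4 were called higher in limma, by 0.67, 1.52 and 1.90. COL3A1, PDGFRL, VIM and COL1A2 gave negative differences there, none called. The DKK3 probe sets gave -0.23, -0.40 and -1.30 in Dobermans, none called. The part of these markers in the DKK3 levels was not tested.

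NR2F1 and NR2F2 both had their highest mean in Boxers and their lowest in controls. NR2F1, probe set 1586287_at, gave 70.6, 126 and 90.2 in controls and 256, 200, 198 and 262 in Boxers 1 to 4. Paced mongrels gave 147, 205 and 190 and Dobermans K, L and R gave 165, 113 and 122. All Boxers and all paced arrays lay above every control, while the Dobermans overlapped the controls. Group means were 95.5 ± 27.9 in controls (SD, n = 3), 133 ± 27.6 in Dobermans (n = 3), 181 ± 30.1 in paced mongrels (n = 3) and 229 ± 34.8 in Boxers (n = 4). The control mean was under the filter level, which makes the size of these differences depend on the pseudocount.

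The NR2F1 difference from controls was 1.15 ± 0.25 (SE, 2.23-fold) in Boxers, 0.84 ± 0.27 in paced mongrels and 0.43 ± 0.27 in Dobermans. None was called (adjusted p = 0.228, 0.0571 and 0.229 in limma). The paced value was just over the threshold, and without Doberman K or Doberman L, which leave the difference as it was and change only the pooled spread, the adjusted p was 0.0282 and 0.0405. No neighbours in the order of means differed beyond the threshold: Dobermans and paced mongrels differed by -0.40 (95% interval -0.98 to 0.17) and Boxers and paced mongrels by 0.32 (-0.22 to 0.86). The gap between Dobermans and Boxers was called at -0.72 ± 0.25 (SE, adjusted p = 0.0399 in limma). It was not called without Doberman L (-0.62, adjusted p = 0.117), Doberman R (-0.67, 0.0982) or any 1 Boxer (-0.67, -0.78, -0.78 and -0.66 without Boxers 1 to 4, adjusted p = 0.0915, 0.0572, 0.0597 and 0.0946).

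NR2F2, probe set 1588306_at, gave 216, 203 and 154 in controls, 353, 438, 289 and 420 in Boxers, 247, 345 and 232 in paced mongrels and 210, 244 and 359 in Dobermans. Boxers and paced mongrels lay wholly above the controls, and Doberman K, at 210, lay among them. Means were 191 ± 32.4 in controls (SD, n = 3), 271 ± 78.2 in Dobermans (n = 3), 275 ± 61.3 in paced mongrels (n = 3) and 375 ± 68.1 in Boxers (n = 4). The differences from controls were 0.91 ± 0.24 in Boxers (SE, 1.88-fold), 0.48 ± 0.26 in paced mongrels and 0.45 ± 0.26 in Dobermans, none called (adjusted p = 0.332, 0.238 and 0.196 in limma). No pair of diseased or paced groups differed beyond the threshold for NR2F2. The interval between Dobermans and paced mongrels ran from -0.59 to 0.53, and that between Dobermans and Boxers from -0.98 to 0.06. The r between NR2F1 and NR2F2 over the 13 arrays was 0.691, with groups and scaling shared by both.

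Scaling decided part of the picture for both receptors. The median log2 difference of all tested probe sets was 0.19 in Dobermans, 0.06 in paced mongrels and -0.03 in Boxers against controls. After quantile normalization the differences of NR2F1 and NR2F2 were -0.03 and 0.07 in Dobermans, 0.30 and 0.06 in paced mongrels, and 1.14 and 0.85 in Boxers. With each array centred on its median they were -0.01 and 0.01 in Dobermans, 0.33 and -0.03 in paced mongrels, and 1.22 and 0.98 in Boxers.

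**Figure D3:**
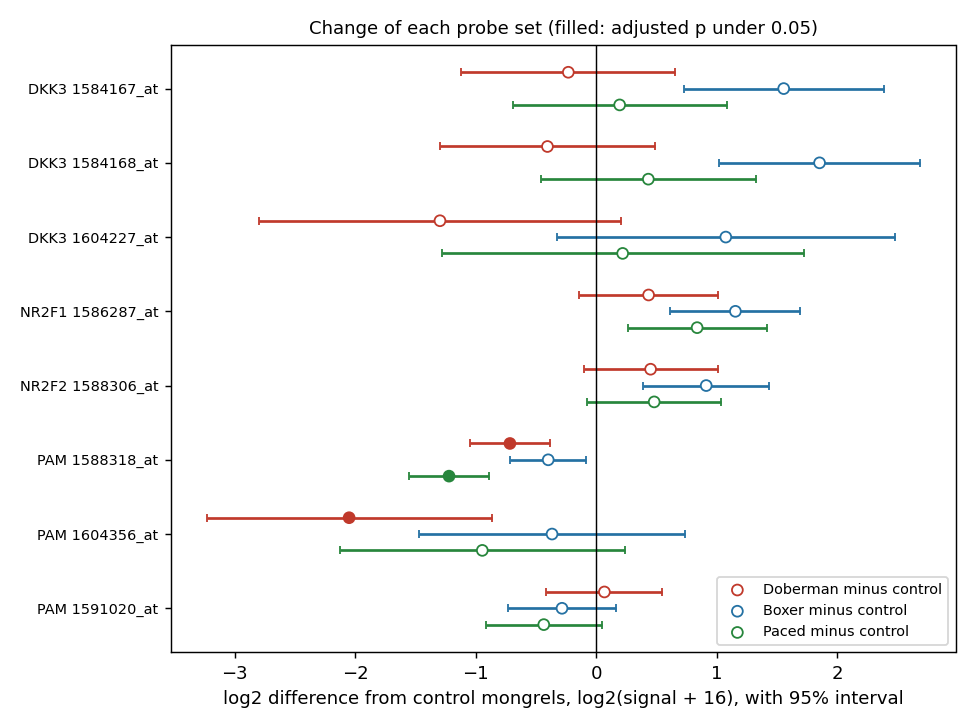
Difference from control mongrels on the log2(signal + 16) scale (x axis) for each probe set (y axis) in Dobermans, Boxers and paced mongrels, with 95% intervals of the limma fit. Filled points have an adjusted p under 0.05; they are PAM 1588318_at in Dobermans (-0.72) and paced mongrels (-1.22) and PAM 1604356_at in Dobermans (-2.05).

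The same 3 controls enter every comparison with the controls, so those comparisons are not independent of each other. In Dobermans 2 of the 8 probe sets were called lower and 0 higher in limma, and the same 2 lay wholly under the controls, 0 above. Over all tested probe sets 11.2% were called lower and 14.3% higher, and 12.6% lay wholly under and 20.9% wholly above the controls. The members' count is that of 1 gene, PAM. After quantile normalization the tested probe sets split into 1076 higher and 1650 lower in Dobermans and 629 and 846 with pacing, in place of 2047 and 1597 and of 1212 and 535. In Boxers 0 of 8 were called, against 0.0280% of all tested probe sets called lower and 0.0140% called higher in limma. At an unadjusted p under 0.05 there were 5 of 8, against 7.40% of all tested: both brighter probe sets of DKK3, NR2F1 and NR2F2, all higher, and PAM 1588318_at, lower. The brighter DKK3 probe sets had an r of 0.891 with each other, so they are not separate results. The members were chosen with earlier results of these data known. Their counts beside the shares, here and below, are therefore a description and no test of the set. In Boxers 4 of 8 lay wholly above the controls, against 6.32% of all tested, and 2 of 8 wholly under, against 9.38%. In paced mongrels 2 of 8 lay wholly above, against 26.1%, and 2 wholly under, against 18.0%, shares of the members that are close to those of all tested probe sets.

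Between the diseased groups, 5 of 8 probe sets were called lower in Dobermans than in Boxers and 0 higher, against 13.6% and 21.8% of all tested. They are all 3 of DKK3, the NR2F1 probe set and PAM 1604356_at. The PAM one, at -1.68 ± 0.52 (SE, adjusted p = 0.0244), turned to 0.21 without Dobermans L and R. It was also not called without Doberman L (-1.40, adjusted p = 0.106), Doberman R (-1.02, 0.117) or Boxer 4 (-1.64, 0.0518), and was -2.63 without K. Dobermans against paced mongrels gave 1 higher, PAM 1588318_at, and 0 lower, against 24.6% of all tested called in either direction. Boxers against paced mongrels gave 3 higher and 0 lower, 2 of DKK3 and PAM 1588318_at, against 4.85% and 12.9%.

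Set as an equal mean against the controls, the 3 diseased and paced groups were lower in PAM 1588318_at by 0.78 ± 0.13 (log2, SE, adjusted p = 0.0240 in limma), and all 10 of their arrays lay under all 3 controls. That was 1 of 8 called lower, against 0.461% of all tested, and 0 higher, against 0.678%. Lying wholly under the controls were 2 of 8, both PAM, against 2.01%, and wholly above were 0, against 0.860%. The PAM call was not made without P1 (-0.69, adjusted p = 0.151), P4 (-0.78, 0.134), Boxer 1 (-0.78, 0.0553) or Boxer 4 (-0.78, 0.0516). NR2F1 was higher than the control mean on 10 of 10 arrays (0.81 ± 0.22, SE, adjusted p = 0.0840), and so was NR2F2 (0.61 ± 0.21, adjusted p = 0.133). The share of all tested probe sets that lay above the control mean on 10 of 10 arrays is not given here. Neither receptor gene was called with all arrays weighted equally. Over 21 alternatives NR2F1 ran from 0.47 to 1.00, with 3 calls, and NR2F2 from 0.32 to 0.70, with 2 calls. Both were called without Doberman K, at 0.76 (adjusted p = 0.0196) and 0.67 (0.0277), and with array weights, at 0.78 (0.0224) and 0.62 (0.0372), and NR2F1 was called without Dobermans L and R, at 0.91 (0.0337). DKK3 had no shared direction, at 0.51, 0.63 and -0.00 for its 3 probe sets.

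Other atrial genes gave no call. Of 24 listed, 4 had a tested probe set: MYL4 and MYL7, the atrial light chains of myosin, KCNA5, and GJA5, a gap junction gene of atrial muscle and the conduction system. No probe set had NPPA, NPPB, MYH6 or SLN as its only symbol in the annotation, so these genes were not analysed. None of the 4 tested genes was called in any of the 7 comparisons in limma, and only MYL7 between Dobermans and paced mongrels had an unadjusted p under 0.05 (0.0322). The names of the MYL4 and MYL7 probe sets mark that they can bind more than 1 transcript. The MYL4 probe set spread widely within every group: 521, 329 and 5163 in controls, 1174, 1536 and 3281 in Dobermans, 1911, 5992 and 4109 in paced mongrels, and 1482, 442, 3054 and 9505 in Boxers. Control P9 was thus above most diseased arrays, and the differences from controls were 0.89 ± 1.03, 1.88 ± 1.03 and 1.10 ± 0.96 (SE). KCNA5 varied little, from 347 to 744 over all arrays, with differences of -0.04, 0.03 and -0.07 in Dobermans, paced mongrels and Boxers, and its other probe set gave -0.54, 0.01 and -0.36. The levels of MYL7 ran from 7650 to 14436 and those of GJA5 from 355 to 1124. In both, every Doberman lay above every control, as was so for 20.9% of all tested probe sets. Their differences in Dobermans, paced mongrels and Boxers were 0.39, -0.05 and 0.05 for MYL7 and 0.41, 0.05 and 0.39 for GJA5.

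**Figure D4:**
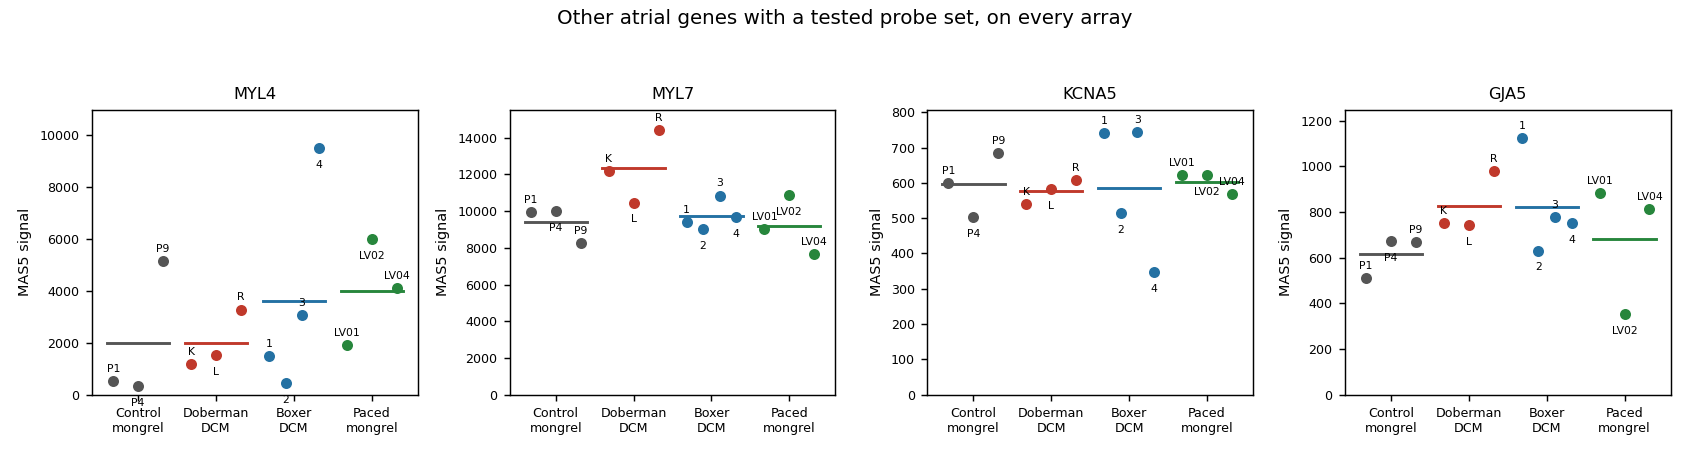
MAS5 signal (y axis, linear, starting at 0) of MYL4, MYL7, KCNA5 and GJA5 on every array, by group (x axis). Each point is 1 array with its sample name and each bar is the group mean. The groups overlap in KCNA5 and in MYL4, where control P9 (5163) lies above all Dobermans. In MYL7 and GJA5 every Doberman lies above every control.

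Of the ventricular list, 7 of 15 genes were tested, and the summed signal was 102603 to 137862 in controls, 98487 to 165288 in Dobermans, 98745 to 114862 in Boxers and 84387 to 96894 in paced mongrels. GJA1, the main gap junction gene of ventricular muscle, fell by 2.84 in Dobermans and fell by 2.37 in paced mongrels (adjusted p = 0.00116 in both). FHL2, a LIM protein of the sarcomere, fell by 1.35 in Dobermans (adjusted p = 0.00204). The myosin genes of ventricular muscle in the list were not called and gave 0.60 (MYL2), 0.47 (MYH7) and 0.11 (MYL3) in Dobermans, against the direction of GJA1 and FHL2. Doberman K gave 28692 for MYL2 and 28680 for MYH7, each within the range of the controls. L and R, the arrays with the raised GAPDH ratio, gave 51955 and 58928 for MYL2 and 61099 and 58977 for MYH7. The names of these myosin probe sets mark that they can bind more than 1 transcript. Of all 5242 genes tested, 734 fell in Dobermans and 212 with pacing. No ventricular gene of the list was called in Boxers. GJA1 gave -0.84 there (adjusted p = 0.530 in limma), with 2557 to 3703 against 5117 to 6441 in controls. It lay wholly under the controls, as did 9.38% of all tested probe sets. In the mean of the diseased and paced groups GJA1 was called at -2.015 (adjusted p = 0.00667 in limma). Median differences of the ventricular list were -0.40, -0.40 and -0.25 in Dobermans, paced mongrels and Boxers, and those of the atrial list 0.40, 0.04 and 0.22. The chamber of origin is not labelled and was not tested.

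Among 26 listed partners of the NR2F receptors, 10 were tested. HDAC1, a histone deacetylase, rose by 0.75 in Dobermans, while HDAC2 and the corepressor gene NCOR1 fell by 0.76 and 0.66 (adjusted p = 0.0401, 0.0196 and 0.0372). RARA, a retinoic acid receptor gene, gave 170, 266 and 197 in controls and 35.3, 37.3 and 84.2 in paced mongrels, with no overlap, and fell by 1.78 ± 0.31 (SE, adjusted p = 0.00416). The paced signals lie under the filter level, so the size depends on the pseudocount. The list thus had 1 rise and 2 falls in Dobermans, 1 fall with pacing and 0 calls in Boxers, with median differences of 0.21, -0.41 and -0.24. Over all 5242 genes tested, 624 rose and 734 fell in Dobermans, 268 and 212 with pacing and 1 and 2 in Boxers, with medians of 0.04, -0.04 and -0.02.

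Of 45 listed genes of Wnt signalling, to whose inhibitors DKK3 is related, 11 were tested. DKK2, another Dickkopf gene, gave 2255, 802 and 2612 in Dobermans K, L and R and 532, 426 and 204 in controls. It rose by 2.17 ± 0.57 (SE, adjusted p = 0.0191) in Dobermans and was also above Boxers by 1.70 ± 0.53 (SE, adjusted p = 0.0268), the opposite order of the breeds to DKK3. SFRP4, a secreted Wnt antagonist, rose by 1.73 in Dobermans and 2.06 in paced mongrels, from control signals under the filter level. PORCN, which lipidates Wnt proteins, rose by 0.88 and the receptor gene FZD6 fell by 0.95 in Dobermans. That is 3 rises and 1 fall in Dobermans, 1 rise with pacing and 0 calls in Boxers, with median differences of 0.02, 0.42 and 0.03.

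Of 37 listed genes of peptide hormones and their granules, 12 were tested. CORIN, the protease that cleaves the precursor of atrial natriuretic peptide, gave 2541, 2666 and 2071 in controls and 1798, 644 and 778 in Dobermans, all lower, and fell by 1.30 ± 0.33 (SE, adjusted p = 0.0172). With pacing CHGB, a granule protein gene, rose by 1.18 and TRIO, a relative of KALRN, rose by 1.13, while PAM 1588318_at fell. KALRN, first found as a partner of PAM, fell by 0.77 in Dobermans, and CADPS2, a factor of granule release, rose by 0.87. The list had 1 rise and 2 falls in Dobermans, 2 rises with pacing and 0 calls in Boxers, with median differences of 0.06, 0.22 and 0.06. ADM, whose peptide is amidated, differed by 0.57, 0.52 and 0.04 in Dobermans, paced mongrels and Boxers and was not called.

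By likeness over the 13 arrays (Pearson r of log2 values, with groups and scaling shared, among 5242 genes), the genes closest to DKK3 were ARFGAP3 (0.900), ARPC5 (0.896), RAB6A (0.886), PRKD1 (0.862) and MYL12B (0.858). ARFGAP3 stayed close at 0.881 after group means were subtracted, when FUT8 came first at 0.913. The closest to PAM were WDR47 (0.942), UBXN1 (0.914), SDR39U1 (0.905), C3H15orf40 (0.898) and MLYCD (0.897), none of which was among its closest 5 once group means were subtracted. NR2F1 was closest to C3 (0.846), TUSC3 (0.826), TPM4 (0.819), ANXA1 (0.799) and YWHAQ (0.785), and NR2F2 to PHGDH (0.827), SOCS5 (0.788), CNST (0.782), LMO3 (0.736) and SFXN4 (0.725). The closest genes differed for each of the 4 members.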

How the data were processed

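Total RNA was extracted with Trizol and RNeasy and labelled with biotin in 1 cycle, per the labels' protocols. The deposited values are MAS5 signal intensities, per the submitters' processing notes. The version of MAS5 is not given in the sources used here. All arrays had a 2% trimmed mean near 500 when checked. The 77 control probe sets were left out, and 0 sample columns were unused. A log2(signal + 16) model with 1 mean per group and 9 residual degrees of freedom was fitted in limma 3.58.1 (R 4.3.3) to all 13 arrays, with trend eBayes, for 7 comparisons; the pipeline was tested on simulated data. The annotation gave 10549 probe sets 1 symbol, 138 several and 13149 none; gene identifiers changed 0 symbols. Each gene of a list is represented by its brightest tested probe set. All members' probe sets were named, and of each list the genes that passed against controls. The members, lists and tests were chosen with earlier results of these data known. No sequences or coordinates were used. Alternatives were leaving out each sample, other scalings, pseudocounts and filters, array weights, the GAPDH ratio as a covariate, a fit restricted to the groups compared and other probe sets. The number of arrays limits the precision. Figures were drawn with matplotlib 3.10.9 in Python 3.11.15.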

Additional observations from a re-analysis of the deposited data

Results flagged for a closer look

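The effect against the shared controls differed between groups, by the direct limma test between them, for 9 results. For DKK3, Dobermans minus Boxers was -1.79, -2.26 and -2.37 on the log2 scale over its 3 probe sets, and Boxers minus paced mongrels was 1.36 and 1.42 for the first and second. NR2F1 was -0.72 in Dobermans minus Boxers. For PAM, 1604356_at was -1.68 in Dobermans minus Boxers, while 1588318_at was 0.82 in Boxers minus paced mongrels and 0.51 in Dobermans minus paced mongrels. A test of a single sample far from the others was run in the Boxers only, where none of the 8 probe sets had such a sample. It was not run in the other groups, so a lone sample such as LV04 in DKK3 was not tested.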

How the results depend on the processing

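Values are log2 differences, the probe sets of a gene are numbered from the brightest, and causes of the changes were not tested except where a setting itself shows them. The PAM fall with pacing in 1588318_at was called when any 1 sample was left out and under every other setting run on that probe set. Called in place of not called were, with array weights, Boxers minus controls in DKK3 (1.58), NR2F1 (1.15) and NR2F2 (0.85), NR2F1 with pacing (0.82), and the mean of the diseased and paced groups in NR2F1 (0.78) and NR2F2 (0.62). Without Dobermans L and R, NR2F1 was called in Boxers (1.15), with pacing (0.84) and in the mean of groups (0.91), and with the GAPDH covariate it was called with pacing (0.81). The second PAM probe set was called with pacing without L and R, without K and with only the groups compared (-0.95 in each), with array weights (-0.96) and with the GAPDH covariate (-1.15). Between groups, quantile normalization gave a call for NR2F2 in Dobermans minus Boxers (-0.78) and Boxers minus paced (0.79), as did median centring (-0.97 and 1.01), which also called PAM in Dobermans minus Boxers (-0.83) and NR2F1 in Boxers minus paced (0.89).

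Calls were lost in PAM in Dobermans when only the groups compared were fitted (-0.72), with the GAPDH covariate (-0.57) and without L and R (-0.64). Dobermans minus Boxers lost the NR2F1 call with no filter (-0.72), with only the groups compared (-0.72), with array weights (-0.78), with the GAPDH covariate (-0.51) and without L and R (-0.43), and the DKK3 call with the last pair of settings (-1.66 and -1.41). PAM in Dobermans minus paced lost its call with only the groups compared (0.51), array weights (0.45) and the GAPDH covariate (0.67), and DKK3 in Boxers minus paced with quantile normalization (1.23) and a filter at the 70th percentile (1.36). That filter left out NR2F1, NR2F2 and both dimmer probe sets of DKK3. The covariate goes largely with the Doberman group, so calls lost with it cannot tell RNA integrity from a group difference.

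With the same probe set, signs turned only in differences that were not called before the setting was changed, with 1 exception. That was the second PAM probe set in Dobermans minus Boxers, which was 0.11 with the GAPDH covariate and 0.21 without L and R. In Dobermans minus controls, quantile normalization turned NR2F1 (-0.028) and the third PAM probe set (-0.022), median centring turned NR2F1 (-0.0051) and that PAM probe set (-0.37), and leaving out L and R turned DKK3 (0.14). With pacing, median centring gave -0.31, -0.076 and -0.29 for the DKK3 probe sets and -0.028 for NR2F2, and quantile normalization -0.16 for the third of DKK3. In Dobermans minus paced, NR2F2 was 0.010 with quantile normalization, 0.039 with median centring and 0.15 with array weights, and the second PAM probe set was 0.82 with the GAPDH covariate and 0.79, then called, without L and R. The third PAM probe set was -0.16 in Dobermans minus Boxers with median centring. The third DKK3 probe set in the mean of groups was 0.10 with a pseudocount of 64, 0.32 with the covariate and 0.40 without L and R.

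Representing a gene by another probe set changed PAM most. The second gave -0.95 and the third -0.44 with pacing, not called before settings were changed. Over 23 alternatives the third ran from -0.94 to -0.19 with pacing and was called in 1. In Boxers minus paced it was also called in 1 of 23. The third gave 0.068 in Dobermans, a turned sign. In Dobermans minus Boxers they gave -1.68, called, and 0.35. In Dobermans minus paced they gave -1.11 and 0.50, in Boxers minus paced 0.58 and 0.15, and in the mean of groups -1.12 and -0.22, none called. The third of DKK3 gave 0.86 in Boxers minus paced and -0.00 in the mean of groups (-0.00083), not called.

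With 1 sample left out, differences ranged from 0.67 to 1.02 for NR2F1 with pacing, -0.28 to 0.44 for DKK3 with pacing, -0.60 to 0.86 for the third of DKK3 with pacing, and -0.037 to 0.19 for the third of PAM in Dobermans. Between groups they ranged from -0.87 to -0.62 for NR2F1 and -0.37 to -0.23 for PAM in Dobermans minus Boxers, and in Dobermans minus paced from -0.68 to 0.050 for DKK3, -0.24 to 0.14 for NR2F2 and 0.45 to 0.60 for PAM. Boxers minus paced ran from 1.11 to 1.84 for DKK3 and -0.092 to 0.33 for the third of PAM. The mean of groups ran from 0.64 to 1.00 for NR2F1, 0.48 to 0.70 for NR2F2, -0.87 to -0.69 for PAM and -0.27 to 0.21 for the third of DKK3. A lone sample left in a group was assumed to vary like the other groups.

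Counts of all called probe sets moved far. In Dobermans the count of 3644 ran from 20 with only the groups compared to 7349 without K, with pacing 1747 ran from 220 at the 70th percentile filter to 4407 without L and R, and in Boxers 6 ran from 3 to 254 with array weights. Dobermans minus Boxers, 5066, ran from 56 with the GAPDH covariate to 8110 without K, Dobermans minus paced, 3514, from 524 with only the groups compared to 6183 without K, Boxers minus paced, 2536, from 407 at that filter to 5720 with no filter, and the mean of groups, 163, from 5 without P4 to 3279 without K. Median centring split the calls into 507 higher and 3115 lower in Dobermans and 530 and 3394 with pacing. Dobermans minus Boxers split into 3117 and 1949, then 1545 and 2121 with quantile normalization and 806 and 4299 with median centring, Boxers minus paced into 694 and 1842, then 1124 and 802 and 4741 and 662, Dobermans minus paced into 1863 and 1651, then 2305 and 1126 with median centring, and the mean of groups into 97 and 66, then 9 and 14 and 62 and 408. The fit of only the groups compared is the whole fit for the mean of groups and was not run. No paired analysis was possible because the groups share no replicate names.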

Other observations

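Markers of other cell types are given beside the calls over all 5242 genes tested, of which 624 rose and 734 fell in Dobermans and 268 rose and 212 fell with pacing. More calls in Dobermans is thus the pattern of the whole array. The genes of the lists, here and above, were not refitted without Dobermans L and R, the arrays with the raised GAPDH ratio. Of 12 tested macrophage markers, FCGR1A, TYROBP and CCL2 rose by 2.11, 1.09 and 1.84 in Dobermans and LYZ fell by 1.20, and FCGR1A rose by 1.97 with pacing. Of 9 fibroblast markers, DCN, S100A4 and MFAP4 rose by 0.67, 1.52 and 1.90 in Dobermans, and MFAP4 by 1.20 with pacing. Of the others in Dobermans, none called, COL1A1 and FBLN2 gave 0.91 and 0.66, and COL3A1, PDGFRL, VIM and COL1A2 gave -1.03, -0.52, -0.38 and -0.32. Of 9 smooth muscle and pericyte markers, DES, MCAM, SYNPO2 and CRIP1 rose in Dobermans by 1.26, 1.19, 1.20 and 1.96 and KCNJ8 fell by 1.55. ACTA2, MYH11, TAGLN and SMTN gave 0.52, 0.08, 0.54 and 0.32 in Dobermans, none called. Dobermans K, L and R gave 18716, 45939 and 44678 for DES and 7842, 21631 and 15585 for CRIP1. In these and in MCAM, K was the lowest Doberman but above every control. For SYNPO2 they gave 1002, 500 and 463, highest in K. For KCNJ8 they gave 2265, 549 and 718, with K just under the lowest control, 2326. With pacing SMTN rose by 0.90 while MCAM fell by 1.92 and KCNJ8 fell by 1.33. MCAM thus passed in opposite directions in Dobermans and in paced mongrels.

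Of 7 endothelial markers, FLT1 fell by 0.73 in Dobermans, and TEK and ECSCR fell by 1.12 and 2.23 with pacing. The vein and lymphatic markers PDPN and SELP, the only 2 tested of 8, rose by 0.92 and 1.08 in Dobermans. NRP1, the only arterial marker tested, fell by 1.69 with pacing. Of 3 neural markers, UCHL1 rose by 2.16 and NCAM1 fell by 1.25 in Dobermans, and GAP43 rose by 0.90 with pacing. In UCHL1 and NCAM1 the Boxers, not called, lay on the same side of the controls as the Dobermans, without overlap. UCHL1 ran from 2747 to 5442 in Boxers and 803 to 2264 in controls, and NCAM1 from 185 to 311 and 327 to 642. Over all tested probe sets 6.32% lay wholly above the controls in Boxers and 9.38% wholly under. KRT18, the only epicardial marker tested, rose by 1.75 in Dobermans. Of 4 adipocyte markers PPARG rose by 1.47 and LPL fell by 2.62 in Dobermans. Of 12 heart muscle markers RYR2, the calcium release channel, fell by 1.10 in Dobermans. None of these lists had a call in Boxers, where limma called 1 rise and 2 falls among 5242 genes.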
